A study of Oryza sativa with 8 samples.

Results

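The comparison was between ZhenShan97A, a rice cytoplasmic male sterile (CMS) line, and the other sterile lines, D62A and XQZ-A. The study gives their cytoplasms as WA type, D type and DA type, in that order. Members of the comparison are the 6 arrays of the 3 sterile lines among the 8 arrays of the series, with 2 arrays per line. They were chosen by the line named in the labels. The remaining 2 arrays, of the fertile line Meixiang B, were used to see on which side of a difference the fertile state lay and to estimate the spread. Every value below is a log2 intensity in which intensities under 16 were set to 16, so 4.0 is the floor, or a difference of such values. A difference was taken within replicate number, as ZhenShan97A minus the mean of D62A and XQZ-A.

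All lines were grown in the field, and the RNA came from tissue taken at the uninucleate microspore stage. The labels call this tissue young panicle, whereas the study's methods say that anthers were harvested, and which was used was not settled here. No treatment was applied. According to the study's methods, each sterile line is a cytoplasm brought into the nuclear background of Meixiang B by repeated backcrossing, so the lines are meant to share a nucleus and to differ in cytoplasm. The replacement of the nucleus was incomplete in each line and least complete in the WA line, so that an effect of the WA cytoplasm and an effect of residual ZhenShan97A nuclear DNA cannot be told apart here. Each line is also 1 lineage, so that cytoplasm type and line cannot be told apart either.

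In CMS a mitochondrial gene of the cytoplasm stops pollen development while female fertility is kept, and nuclear restorer genes can undo the effect. Nuclear genes respond to the state of the mitochondrion by retrograde signalling, for which induction of alternative oxidase is the textbook marker. In WA-type rice the sterility is known for a mitochondrial protein that accumulates in the tapetum, the anther layer that feeds the microspores, and for early death of that layer.

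The median intensity, before any floor, was 7.65 to 8.15 on the replicate 1 arrays and 19.2 to 20.6 on the replicate 2 arrays, and 42.5% to 65.2% of the probes of an array were at or below the floor. Same-numbered arrays deviated together from their line means, with a correlation over tested probes of 0.722 to 0.836 in 6 of 6 pairs of lines. The correlation was taken with the floor and without normalization between arrays, so the brightness difference between the numbers enters it. It therefore cannot show that the samples of a number were paired. The study's methods call the replicates biological, without saying whether they came from separate plants or plots. The p-values measure the spread between these arrays within the replicate numbers. In a listing of log2 values by line that accompanies the study, 588 of 620 probes carried the deposited values, on the log2 scale without a floor and within 0.005, with D62A and XQZ-A exchanged, and 2 carried them as labelled. With the floor the counts were 368 and 2. The exchange leaves the mean of both lines, and with it the main contrast, as it is, but turns every value given for D62A or XQZ-A alone, so these are values of the arrays labelled D62A or XQZ-A.

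Whether the arrays held RNA of panicles or of anthers, fewer cells of a type and less RNA per cell cannot be told apart in a bulk sample. Of 7 tapetum markers tied to a probe, 4 were tested and 0 were called between the lines. TDR and BURP13 among them were at the floor on 6 of the 8 arrays each. Their highest values on a sterile array were 4.26 and 4.18, so they could hardly have been called between the sterile lines. C4, whose product carries lipids in the tapetum, stood at 7.10 and 8.02 in D62A, 6.16 and 7.92 in ZhenShan97A, 5.08 and 6.29 in XQZ-A, and 9.37 and 10.30 in Meixiang B. C6, likewise of tapetal lipid transfer, stood at 5.0 and 6.41 in D62A, 4.38 and 6.94 in ZhenShan97A, 5.05 and 6.12 in XQZ-A, and 8.70 and 11.01 in Meixiang B. C4 and C6 were highest in the fertile line, and across replicate numbers the ZhenShan97A arrays overlapped those of each other sterile line. Within the numbers, C4 in ZhenShan97A was 1.08 and 1.64 above XQZ-A, and -0.94 and -0.10 from D62A. C6 was -0.68 and 0.82 from XQZ-A, and -0.63 and 0.53 from D62A. Of the 3 tested stamen and lodicule markers 0 were called at 2-fold, at -0.04 (MADS), 0.42 (AP3) and 0.73 (FDRMADS7), the last with a limma adjusted p of 0.0359 and with listed synonyms that leave its identity unsure. The 4 lemma and palea markers ran from -0.37 (MADS6) to 0.52 (Lhs1), the carpel gene DL stood at 0.12, and the 4 green tissue markers ran from -0.55 (PORA) to -0.06 (RBCS), with 0 called. The part of cell composition in the results below was not tested.

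Most probes called between the lines were higher in the WA line. Of 20416 tested probes, 199 (0.975%) were called higher in ZhenShan97A and 14 (0.0686%) lower, at least 2-fold with a limma adjusted p under 0.05. Among the higher were genes of iron and manganese handling (Nramp1, YSL2, BHLH063), alternative oxidase (AOX1), the jasmonate-conjugating enzyme gene JAR1 and a pair of cytokinin response regulators (RR9, RR10). Among the lower were the cell wall loosening gene EXPB4 and the transcription factor gene WRKY76. The called differences were 1.0 to 2.76 with a median of 1.21 for the higher probes, and -2.36 to -1.0 with a median of -1.20 for the lower. At the stricter threshold of the study's methods, an adjusted p under 0.01 and 2-fold, 0 probes were called by limma, the lowest adjusted p being 0.0137, while 4360 probes had an unadjusted p under 0.05, 3120 higher and 1240 lower. The threshold of 0.05 is used below for that reason.

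The counts rest on the pairing, on the scaling and on single arrays. With no replicate block, with no filter on dim probes and after quantile normalization between arrays, 0 probes were called at 0.05, and with a floor of 32 there were 3. Without a ZhenShan97A array 1 (replicate 1) or 0 (replicate 2) were called, without either XQZ-A array 0, without D62A replicate 1 329 and without D62A replicate 2 235. The excess of higher over lower also moved with scaling: at an unadjusted p under 0.05, quantile normalization gave 2034 higher and 2300 lower, and over all tested probes 2-fold apart by the mean it turned 300 higher and 35 lower into 212 and 63. All 213 called probes kept their sign after quantile normalization and 155 were still 2-fold apart.

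Most called probes differed 2-fold within each replicate number. Over all 40832 probes, with no filter and no test, 132 probes (0.323%) were at least 2-fold higher in ZhenShan97A within both numbers and 10 (0.0245%) at least 2-fold lower. Within replicate 1 alone the counts were 324 and 39, and within replicate 2 alone 516 and 160. Of the 199 probes called higher, 199 were above D62A and above XQZ-A within both numbers, and 115 were 2-fold higher within both. In 160 of the 199, both ZhenShan97A arrays lay above all 4 arrays of the other lines, as they did for 1452 of all tested probes (7.11%). In the opposite direction, both lay below for 9 of the 14 called lower, against 292 of all tested probes (1.43%). For 46 of the higher probes at least 1 sterile array was at the floor, which makes those differences lower bounds, and 12 of the 199 passed the filter only through their ZhenShan97A arrays and so had to differ.

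**Figure D1:**
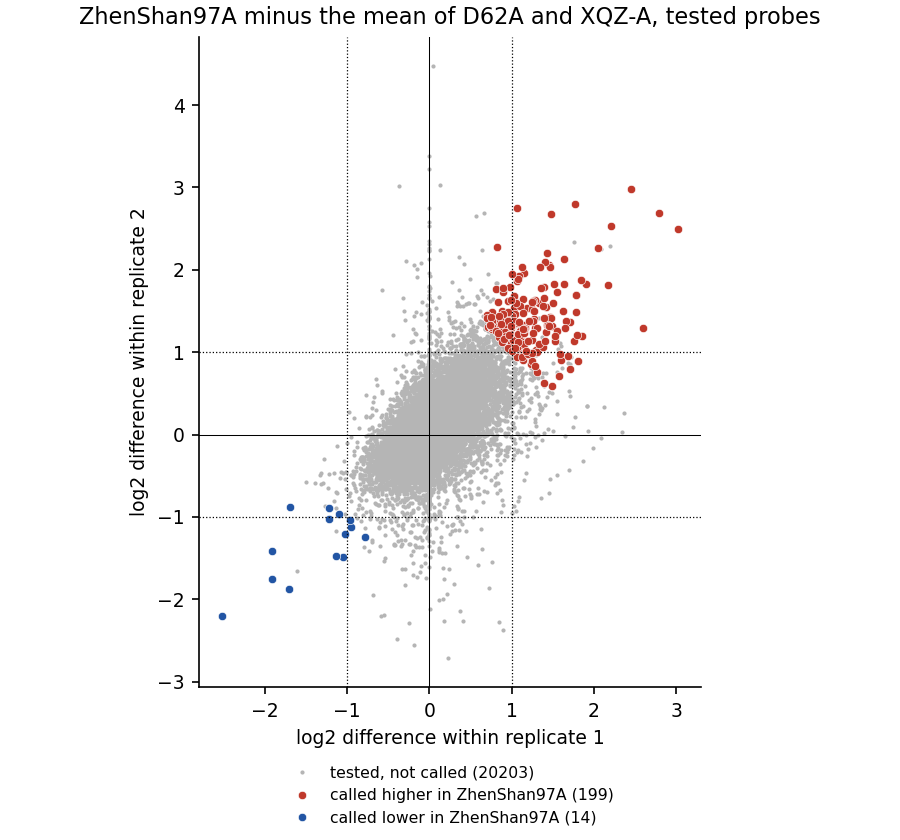
Log2 difference of ZhenShan97A from the mean of D62A and XQZ-A within replicate number 1 (horizontal axis) and 2 (vertical axis), 1 point per tested probe, with the probes called at adjusted p under 0.05 and 2-fold coloured by direction. The 199 higher probes lie in the upper right and outnumber the 14 lower ones.

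Set against fertile Meixiang B, the higher probes were of different kinds. In 82 of the 199, ZhenShan97A was at least 2-fold from Meixiang B and the mean of the other lines was not, so the WA line departed from the fertile level. In 38 it was the other lines that departed while ZhenShan97A stayed within 2-fold of Meixiang B. In 17 the WA line and the others lay on opposite sides, each by at least 0.5, but not in either class before, and 62 fell in none of these classes. The median difference from Meixiang B was 0.86 for ZhenShan97A and -0.33 for the other lines. Among the 14 lower probes the WA line departed in 4 and the others in 7, with 3 in no class. The Meixiang B arrays enter both differences, so that these counts are a description.

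**Figure D2:**
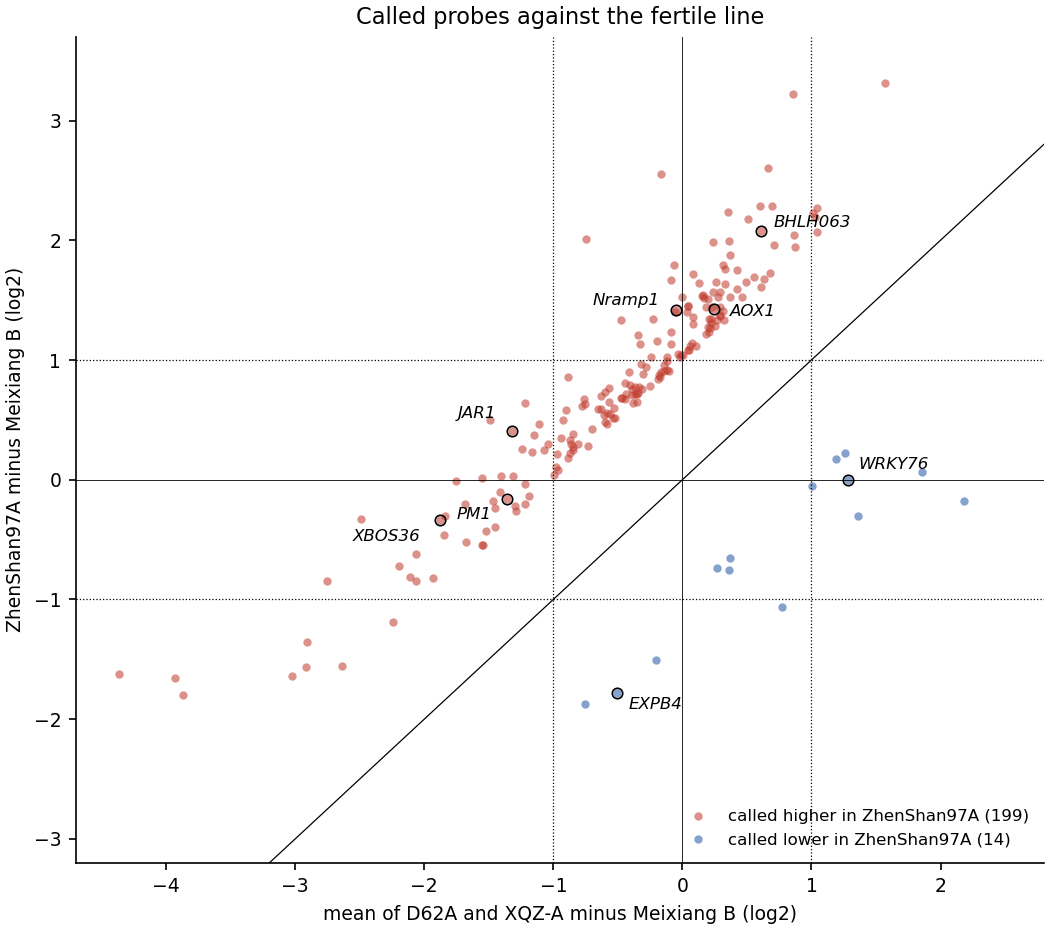
Log2 difference from Meixiang B of the mean of D62A and XQZ-A (horizontal axis) and of ZhenShan97A (vertical axis) for the called probes, with 8 called genes named and dotted lines at 2-fold. AOX1, Nramp1 and BHLH063 lie above the upper dotted line, whereas JAR1, XBOS36 and PM1 lie to the left of the left one and near 0 on the vertical axis.

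Taken 1 at a time, with contrasts added after seeing the data and sharing the ZhenShan97A arrays, the other lines gave unequal counts. Against XQZ-A, 472 probes (2.31%) were called higher in ZhenShan97A and 66 (0.323%) lower. Against D62A, 7 (0.0343%) were called higher and 0 (0.0%) lower by limma, although 2734 probes had an unadjusted p under 0.05. The median difference of the 199 higher probes was 1.44 against XQZ-A and 1.02 against D62A, and D62A was the nearer to ZhenShan97A in 169 of them. Of the 20 called genes with a symbol, 19 had an adjusted p under 0.05 against XQZ-A, WRKY76 (0.0971) being the exception, and 1, HAK5 (0.0482), against D62A, a gene that passed the filter only through its ZhenShan97A arrays. The difference between D62A and XQZ-A itself was not tested. The called differences therefore stand for the mean of both lines and were in most cases not called against the D62A arrays alone.

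**Figure D3:**
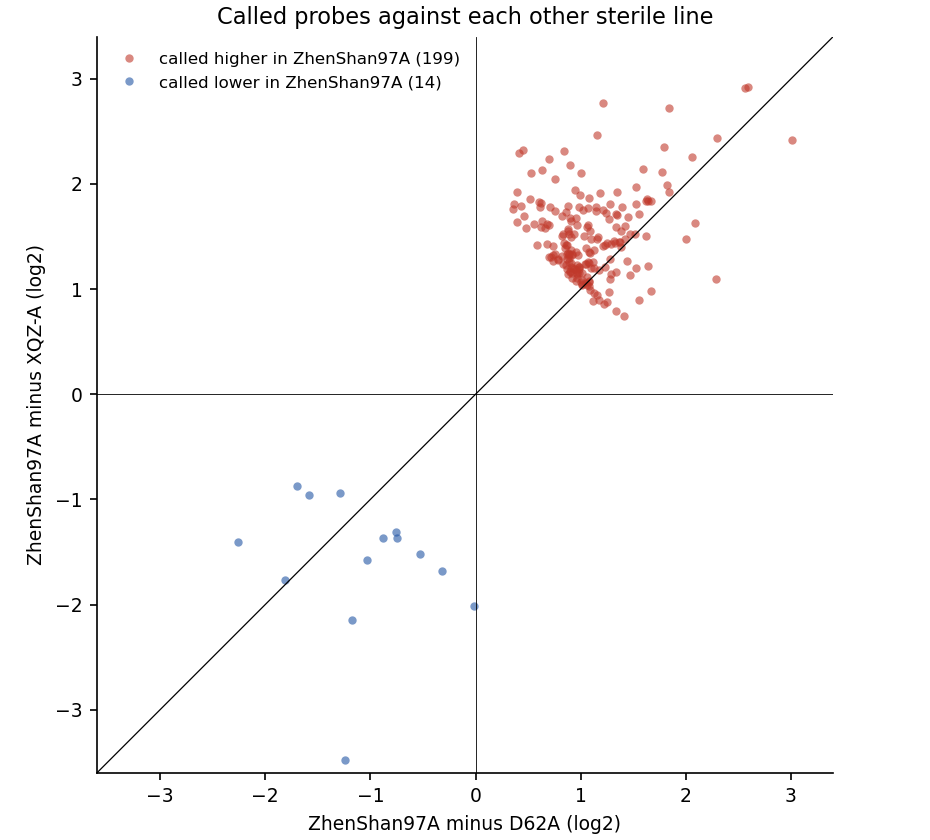
Log2 difference of ZhenShan97A from D62A (horizontal axis) and from XQZ-A (vertical axis) for the called probes, as the mean of the 2 replicate numbers. Most points lie above the diagonal, with D62A nearer to ZhenShan97A in 169 of the 199 higher probes.

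The probes were named through the RefSeq gene table. In all, 15295 of 40832 probes lay in 1 gene, and 9795 genes were tested by their brightest probe, 1437 of them with a symbol. By gene, 111 (1.13%) were called higher and 7 (0.0715%) lower. Over all tested genes the median difference was 0.05, with 5545 positive and 4250 negative, and after quantile normalization there were 4781 positive and 5013 negative. With no limit on fold, 361 genes (3.69%) were higher at an adjusted p under 0.05 and 38 (0.388%) lower, and at an unadjusted p under 0.05 the counts were 1910 (19.5%) and 565 (5.77%). The 20 called genes with a symbol, 18 higher and 2 lower, are given below by role, and each was measured by 1 probe.

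Of 28 tested genes of metal transport and iron regulation, 3 were called higher in the WA line and 0 lower, beside 1.13% and 0.0715% of all tested genes. Nramp1 on chromosome 7, which codes for an iron and cadmium transporter of the Nramp family, stood at 6.66 and 7.06 in ZhenShan97A, 5.06 and 5.89 in D62A, 4.97 and 5.64 in XQZ-A, and 4.96 and 5.92 in Meixiang B. Both WA arrays were above all 6 others, and the other sterile lines were at the fertile level. The difference was 1.47 (SE 0.14, limma adjusted p = 0.0142), a fold of 2.77. ZhenShan97A was 1.42 above Meixiang B and the other lines -0.05.

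YSL2 on chromosome 2 codes for a transporter of iron and manganese bound to nicotianamine. It stood at 7.19 and 8.0 in ZhenShan97A, 6.35 and 6.68 in D62A, 6.43 and 6.62 in XQZ-A, and 6.19 and 6.27 in Meixiang B. Again the WA arrays were the highest pair, with a difference of 1.07 (SE 0.17, limma adjusted p = 0.0304), which fell to 0.94 after quantile normalization and to 0.77 without ZhenShan97A replicate 2. BHLH063 on chromosome 3 codes for a basic helix-loop-helix factor, and the gene table lists for it both IRO3, a repressor of the iron deficiency response, and OsIRO2, an activator of it. Its levels were 8.85 and 9.71 in ZhenShan97A, 7.82 and 8.46 in D62A, 7.24 and 7.76 in XQZ-A, and 7.03 and 7.38 in Meixiang B. The difference was 1.46 (SE 0.14, limma adjusted p = 0.0142). Here the other sterile lines were themselves 0.61 above Meixiang B, and ZhenShan97A 2.07 above it.

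None of the rest of the list passed an adjusted p under 0.05 in either direction. The metal list held 17 positive and 11 negative differences, with a median of 0.21, or 0.12 after quantile normalization. Other members of the same families stood at values that were not called, such as NRAMP2 at 0.73 (limma adjusted p = 0.0684), NRAMP3 at 0.43, ZIP1 at -0.50 and NRAMP6 at -0.40. The locus that the study calls Nramp6 was not matched to a probe here, so NRAMP6 need not be that locus.

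AOX1 on chromosome 4, the alternative oxidase gene AOX1a, codes for the mitochondrial enzyme that passes electrons to oxygen past the cytochrome pathway. It stood at 9.53 and 10.05 in ZhenShan97A, 8.62 and 8.61 in D62A, 8.64 and 8.56 in XQZ-A, and 8.27 and 8.46 in Meixiang B. The WA arrays were the highest pair, and the 4 arrays of the other sterile lines were nearly level. The difference was 1.18 (SE 0.15, limma adjusted p = 0.0216), a fold of 2.27. It was 0.89 within replicate 1, under 2-fold, and 1.47 within replicate 2. ZhenShan97A was 1.42 above Meixiang B against 0.24 for the other lines. The 3 other tested genes of the respiration list, all of mitochondrial protein import, differed by 0.17 (TOM20), 0.14 (TIM13) and 0.06 (TIM9) and were not called. Of 19 tested genes of reactive oxygen removal 0 were called, although APX1, an ascorbate peroxidase gene, was 0.79 higher (limma adjusted p = 0.0272) and MDAR2, a monodehydroascorbate reductase gene, 0.82 higher (limma adjusted p = 0.049).

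HAK5 on chromosome 1, a high-affinity potassium transporter gene, was detected in the WA line and hardly elsewhere. It stood at 5.49 and 5.41 in ZhenShan97A and at 4.0 and 4.17 in D62A, while all arrays of XQZ-A and Meixiang B were at the floor of 4.0. The difference of 1.405 is therefore a lower bound, and it fell to 0.45 with a floor of 32. HAK5 passed the filter on dim probes only through its ZhenShan97A arrays (mean over the 8 arrays 4.38, or 4.03 with these at the level of the other sterile lines, against a limit of 4.20), so its limma adjusted p of 0.0137 is no support. It was 0.0518 over probes above the floor on at least 1 array and 0.119 with no filter. In its list of 30 potassium transporter, channel and aquaporin genes, HAK2 (0.74) and HAK18 (0.63) were also higher at an adjusted p under 0.05, without reaching 2-fold. The aquaporin gene PIP2-2 reached 1.26 with a limma adjusted p of 0.0554 and was not called.

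Among hormone genes the largest called difference was that of JAR1 on chromosome 5, which codes for the enzyme that joins jasmonic acid to amino acids to make the active hormone. It stood at 7.25 and 8.11 in ZhenShan97A, 5.55 and 6.57 in D62A, 5.68 and 5.99 in XQZ-A, and 6.63 and 7.90 in Meixiang B. The WA line was near the fertile line, and the arrays of the other sterile lines were below both. The difference was 1.73 (SE 0.19, limma adjusted p = 0.0187), a fold of 3.31. ACC2 on chromosome 4, an ACC synthase gene (listed as ACS2) of the rate-limiting step of ethylene synthesis, stood at 6.76 and 7.38 in ZhenShan97A, 5.19 and 6.28 in D62A, 5.85 and 6.70 in XQZ-A, and 5.93 and 6.77 in Meixiang B. Its difference was 1.07 (SE 0.13, limma adjusted p = 0.0201), or 0.91 after quantile normalization. The jasmonate and ethylene list did not move as a whole. Of 30 tested genes 2 were called higher, beside 1.13% of all tested genes. In the list 19 differences were positive and 11 negative, and after quantile normalization the counts were 14 and 16. COI1B, a jasmonate receptor gene, was -0.63 apart (limma adjusted p = 0.0457).

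RR9 on chromosome 11 and RR10 on chromosome 12 are type-A response regulator genes, which cytokinin induces and whose products damp its signal. RR9 stood at 6.72 and 7.45 in ZhenShan97A, 5.39 and 6.01 in D62A, 5.77 and 5.6 in XQZ-A, and 6.53 and 7.18 in Meixiang B. RR10 stood at 7.22 and 8.22 in ZhenShan97A, 6.21 and 7.0 in D62A, 6.48 and 6.45 in XQZ-A, and 7.21 and 8.29 in Meixiang B. For both, the WA line was at the fertile level and the other sterile lines were lower. The difference was 1.39 for RR9 (SE 0.20, limma adjusted p = 0.0254) and 1.19 for RR10 (SE 0.23, limma adjusted p = 0.045). The genes are close paralogs whose probes may share signal, so that they may not be separate measurements. The other 14 of 16 tested cytokinin response genes were not called, and over all tested genes 1.13% were called higher. The list held 10 positive and 6 negative differences, with a median of 0.25, or 0.15 after quantile normalization.

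PM1 on chromosome 5 (OsPM19L1), of a membrane protein family known for induction by abscisic acid and drought, stood at 8.0 and 9.48 in ZhenShan97A, 7.25 and 8.42 in D62A, 6.70 and 7.78 in XQZ-A, and 8.09 and 9.70 in Meixiang B. The lines overlapped across replicate numbers, and within each number the WA array was near Meixiang B and above the others, by 1.20 on average (SE 0.15, limma adjusted p = 0.02). OsPP2C21 on chromosome 2, a protein phosphatase gene of the family that holds the negative regulators of abscisic acid signalling, stood at 5.53 and 6.14 in ZhenShan97A, 4.48 and 5.38 in D62A, 4.0 and 4.31 in XQZ-A, and 5.34 and 5.63 in Meixiang B. It differed by 1.29 (SE 0.16, limma adjusted p = 0.0199), with 1 XQZ-A array at the floor, or by 0.74 with a floor of 32. In the list of 20 abscisic acid and dehydration genes 1 was called higher, beside 1.13% of all tested genes. Of its differences 15 of 20 were positive, beside 56.6% of all tested genes, and 12 after quantile normalization. NCED3, of the rate-limiting step of abscisic acid synthesis, was 1.19 apart and the dehydrin gene Dhn1 0.84, with limma adjusted p-values of 0.0529 and 0.0569. Of 40 tested phosphatase genes of the OsPP2C21 family 1 was called higher, again beside 1.13% of all tested genes. In that list 34 differences were positive, or 30 after quantile normalization.

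XBOS36 on chromosome 6, an ankyrin repeat gene named after the rice immunity protein XB3, stood at 5.68 and 6.84 in ZhenShan97A, 4.33 and 5.63 in D62A, 4.03 and 4.86 in XQZ-A, and 6.19 and 7.0 in Meixiang B. The other sterile lines were below both the WA and the fertile line, with a difference of 1.55 (SE 0.14, limma adjusted p = 0.0142). ERG1 on chromosome 1, which codes for a small C2-domain protein induced by fungal elicitor, stood at 6.98 and 7.92 in ZhenShan97A, 5.91 and 6.87 in D62A, 5.23 and 6.49 in XQZ-A, and 6.26 and 7.19 in Meixiang B. The fertile line lay between the WA line and the others, and the difference was 1.33 (SE 0.12, limma adjusted p = 0.0142). CML5 on chromosome 12, a calmodulin-like calcium sensor gene, stood at 6.77 and 8.11 in ZhenShan97A, 5.50 and 7.24 in D62A, 5.13 and 6.21 in XQZ-A, and 6.61 and 7.27 in Meixiang B. The lines overlapped across the replicate numbers, and the difference within them was 1.42 (SE 0.21, limma adjusted p = 0.0272). CML5 was the 1 called gene of 50 tested for calcium signalling, beside 1.13% of all tested genes called higher. CML27, a calmodulin-like gene, and CIPK23, a kinase gene of calcium signalling, were 0.94 (limma adjusted p = 0.0198) and 0.63 (limma adjusted p = 0.0382) higher. The split of the calcium list turned with scaling, from 35 positive and 15 negative to 24 and 26 after quantile normalization.

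The other called genes with a symbol belonged to metabolism or to no list. PAL06 on chromosome 2, a phenylalanine ammonia-lyase gene of the entry step to phenylpropanoids, stood at 6.10 and 6.81 in ZhenShan97A, 5.53 and 6.52 in D62A, 4.55 and 4.78 in XQZ-A, and 5.81 and 6.49 in Meixiang B. The low side was XQZ-A alone, and the difference of 1.11 (SE 0.16, limma adjusted p = 0.0272) was the mean over unlike lines. IPP on chromosome 2 had the same shape, at 8.17 and 9.09 in ZhenShan97A, 7.86 and 8.36 in D62A, 6.61 and 6.94 in XQZ-A, and 8.05 and 8.78 in Meixiang B, with a difference of 1.19 (SE 0.15, limma adjusted p = 0.0203). ISPH on chromosome 3, of the last step of the plastid isoprenoid precursor pathway, stood at 5.55 and 5.35 in ZhenShan97A, 4.24 and 4.70 in D62A, 4.24 and 4.0 in XQZ-A, and 4.60 and 4.95 in Meixiang B. It was 1.15 higher (SE 0.18, limma adjusted p = 0.0312), or 0.94 after quantile normalization and 0.45 with a floor of 32. A gene listed only as bHLH on chromosome 7, of the basic helix-loop-helix transcription factors, stood at 7.11 and 8.04 in ZhenShan97A, 6.32 and 6.85 in D62A, 5.36 and 6.01 in XQZ-A, and 6.39 and 7.4 in Meixiang B, a difference of 1.44 (SE 0.14, limma adjusted p = 0.0142).

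**Figure D4:**
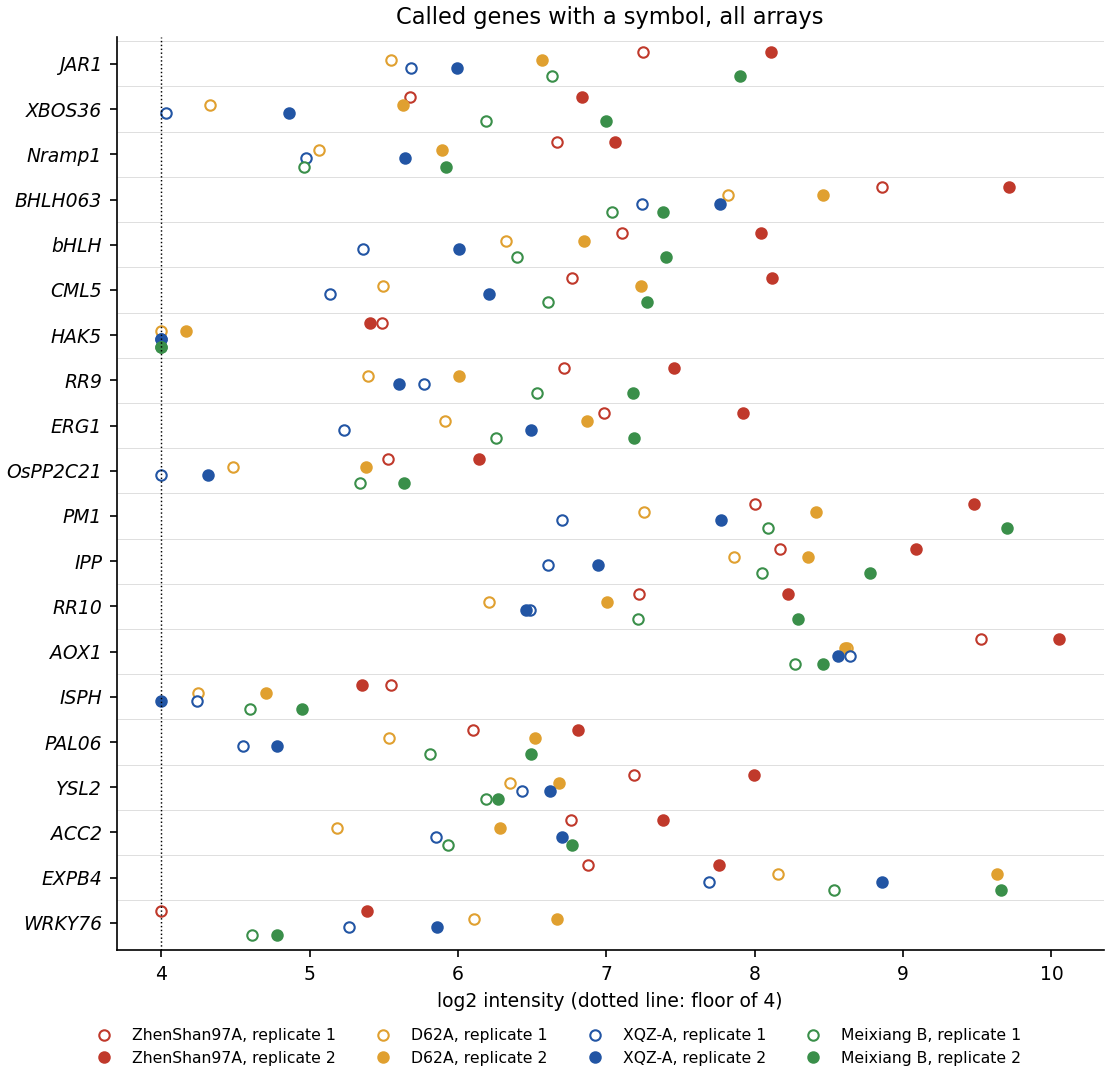
Log2 intensity (floor 4.0) of the 20 called genes with a symbol on each of the 8 arrays, 1 point per array, coloured by line, open for replicate 1 and filled for replicate 2. AOX1 and Nramp1 are highest in both ZhenShan97A arrays, whereas for JAR1 and RR9 the D62A and XQZ-A arrays lie below both other lines.

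Genes lower in the WA line were few. EXPB4 on chromosome 10, a beta-expansin gene of cell wall loosening, stood at 6.88 and 7.76 in ZhenShan97A, 8.16 and 9.63 in D62A, 7.69 and 8.86 in XQZ-A, and 8.53 and 9.66 in Meixiang B. Within each replicate number the WA array was the lowest of the 4, although ZhenShan97A replicate 2 and XQZ-A replicate 1 overlapped. The difference was -1.27 (SE 0.14, limma adjusted p = 0.0191), or -1.42 after quantile normalization, and ZhenShan97A was -1.78 from Meixiang B against -0.51 for the other lines. In the list of 49 cell wall genes, 33 differences were negative and 16 positive, with a median of -0.06. EXP7, an expansin gene, was -0.72 apart (limma adjusted p = 0.0454), and EXP4 was -0.88 apart with a limma adjusted p of 0.0521.

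WRKY76 on chromosome 9, a WRKY transcription factor gene known as a repressor of defence in rice, stood at 4.0 and 5.39 in ZhenShan97A, 6.11 and 6.67 in D62A, 5.26 and 5.86 in XQZ-A, and 4.61 and 4.78 in Meixiang B. Within each replicate number the WA and fertile lines were below the other sterile lines, although ZhenShan97A replicate 2 and XQZ-A replicate 1 overlapped. ZhenShan97A was -1.26 and -0.47 from XQZ-A, and -2.11 and -1.28 from D62A. The difference was -1.28 (SE 0.23, limma adjusted p = 0.038), with 1 WA array at the floor. It was -0.81 without ZhenShan97A replicate 1 and -0.78 with a floor of 32. WRKY76 was the 1 called gene of 6 tested WRKY genes, beside 1.13% called higher and 0.0715% called lower of all tested genes.

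Genes of gibberellin, brassinosteroid and sterol synthesis had mostly negative differences, 10 of 12, with a median of -0.23, or -0.36 after quantile normalization. None was called at 2-fold. C6-oxidase, of brassinosteroid synthesis, was -0.93 apart (limma adjusted p = 0.0229) and Smt1-1, a sterol methyltransferase gene, -0.96 (limma adjusted p = 0.0241). CPS1, of the first committed step to gibberellins, was -1.0 apart with a limma adjusted p of 0.0967. Beta-glucosidase genes were negative in 8 of 10, a split that was 5 and 5 after quantile normalization, and BGLU22 among them was -0.70 apart (limma adjusted p = 0.0422).

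Of 34 tested heat shock and chaperone genes 0 were called, 23 differences were positive and the median was 0.24, or 0.21 after quantile normalization. CLPB-M, a ClpB-type chaperone gene, was 0.72 higher (limma adjusted p = 0.0352), while BIP4, a chaperone gene of the endoplasmic reticulum, stood at -1.07 with a limma adjusted p of 0.0567. Of 38 sugar genes 0 were called, with the sucrose synthase gene SUS4 0.67 higher (limma adjusted p = 0.0336) and the sugar transporter gene SWEET1A 0.82 higher (limma adjusted p = 0.0461). Of 14 MADS-box genes 0 were called, with MADS22 0.98 higher (limma adjusted p = 0.0382). Of 34 auxin genes 1 was called, which is JAR1 through its listed synonym GH3.5. IAA9, an auxin response repressor gene, had a larger difference of 2.16 but an SE of 0.67, and with a limma adjusted p of 0.124 it was not called. In all, 32 lists held 575 tested genes, of which 13 (2.26%) were called higher and 2 (0.348%) lower, beside 1.13% and 0.0715% of all tested genes. The lists were made with earlier results of these data known, so that these shares are no test.

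**Figure D5:**
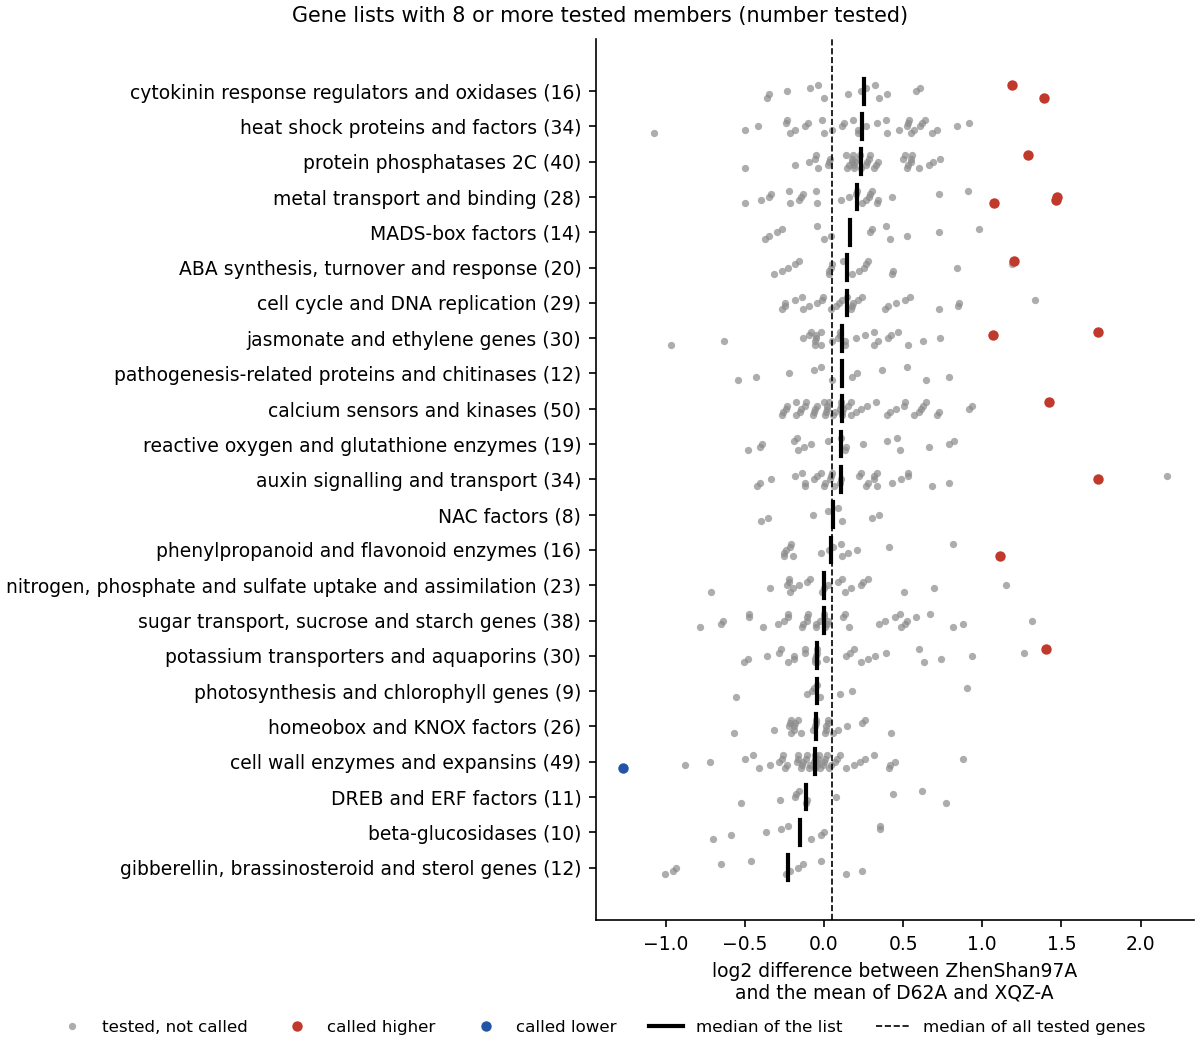
Log2 difference of ZhenShan97A from the mean of D62A and XQZ-A for the gene lists with 8 or more tested members, 1 point per gene and 1 row per list, with called genes coloured by direction, the list median as a bar and the median of all tested genes (0.05) as a dashed line. Medians lie close to 0, at 0.21 for metal transport and -0.23 for gibberellin, brassinosteroid and sterol genes. The called genes are at least 2-fold apart by rule. Some genes that were not called lie as far out, such as IAA9 (2.16) among the auxin genes.

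The largest called differences belonged to genes or probes with no symbol, and 4 of them are given here as chosen after their values were seen. LOC4341606 stood at 8.26 and 8.90 in ZhenShan97A, 5.03 and 6.94 in D62A, 5.45 and 5.86 in XQZ-A, and 6.25 and 6.88 in Meixiang B, a difference of 2.76 (limma adjusted p = 0.0162) with the WA line above all others. LOC4346354 stood at 7.59 and 8.62 in ZhenShan97A, 5.17 and 5.91 in D62A, 4.44 and 5.95 in XQZ-A, and 8.80 and 10.66 in Meixiang B, a difference of 2.74 (limma adjusted p = 0.0137) with the fertile line higher still. Of the lower, the probe 16490960, tied to no gene, differed by -2.36, with 4.0 and 4.42 in ZhenShan97A, 5.35 and 5.54 in D62A, 7.68 and 7.70 in XQZ-A, and 4.59 and 4.18 in Meixiang B. Here XQZ-A stood apart from every other line. LOC4348117 differed by -1.83.

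The called genes were spread over the genome. Of 9794 tested genes with a place on a chromosome, 118 (1.20%) were called, and the share ran from 0.826% to 1.55% over the 12 chromosomes. No window of 20 neighbouring tested genes held more than 3 called genes. The windows with 3 were on chromosome 6 and held LOC4339981, XBOS36 and LOC4339992. Among all called genes 2 pairs were direct neighbours.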

How the data were processed

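The values were the intensities deposited in the series table, 1 column per array of the GeneAtlas Rice (Cn) gene array, which the labels credit to MAS5 (version not given in the sources used here). The study's methods name RMA with a log scale instead, whereas the deposited intensities are on a linear scale and were not of equal median between replicate numbers. A second table held the same intensities plus 98 more control probe sets. Groups came from the line in the labels.

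Intensities under 16 were set to 16 and log2 was taken. The 20416 of 40832 probes with the highest mean over the 8 arrays were tested with limma (version 3.58.1, run under R 4.3.3), the line and the replicate number, as a block, being the terms of the model, and p-values were adjusted by Benjamini-Hochberg over all tested probes. Pairing by replicate number was taken from the sample titles. The correlation of deviations from line means was computed beside it, but cannot tell paired samples from a shared difference in brightness. Pandas 2.3.3, numpy 2.4.6 and matplotlib 3.10.9 under Python 3.11.15 made counts and plots. The number of arrays, 2 per line, limits the precision.

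Probes were tied to genes through identifiers in the RefSeq gene table, which was used for names, chromosomes and neighbour order. Because the build of the array was not given in the sources used here, windows of 20 neighbouring tested genes were used in place of windows of fixed length. Where a gene had several probes the brightest stood for it. Genes were named where they were called with a symbol and had 1 sign in all differences (up to 12 per direction), or were called members of a list. ISPH and RR10 were named after their values were seen, as were list members that were not called and genes without a symbol, since the table gave no products by which to rank the latter. The study names genes by locus identifiers that were not matched to probes here, so genes appear under their RefSeq symbols alone, and a symbol such as NRAMP6 need not be the locus to which the study gives that name. The comparison, the lists and the rules were chosen with earlier results of these data known. List patterns were corrected after their members were seen, and the phosphatase and cytokinin lists were split off after values were seen. The threshold of 0.05 with its alternatives and the contrasts against each line were also worked out after seeing the data, although 0.05 itself had been listed as a second threshold.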

Additional observations from a re-analysis of the deposited data

How the results depend on the processing

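At the methods' threshold (adjusted p under 0.01 and 2-fold) limma called 0 probes. There were 3 with no floor and 1 added, 7 with a mean-variance trend, 38 with robust moderation, 213 at an adjusted p under 0.05 and 2-fold, and 658 at 0.05 with no fold limit. Leaving out 1 array at a time gave 0 to 85, the 85 without D62A replicate 1, and the other settings gave 0.

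For the 213 calls at 0.05, alternatives chosen after seeing the data gave 0 with no replicate block (498 probes at an unadjusted p under 0.05), 0 with no replicate block and no filter (1244), 0 with no filter (3818), 0 for probes above the floor on at least 1 array (4708), 0 after quantile normalization (4334) and 0 by the methods' t-test (808). A floor of 32 gave 3, the contrast against D62A alone 7 and that against XQZ-A alone 538. Leaving out 1 array gave 0 to 329, the 0 without ZhenShan97A replicate 2 or either XQZ-A array, 1 without ZhenShan97A replicate 1 and the 329 without D62A replicate 1. The cause was not tested, except that a fit without 1 array rests on fewer samples. The other 6 settings gave 209 to 258. Differences were taken within replicate number from the start, so the block is part of the comparison.

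The 142 probes that were 2-fold apart within both numbers became 83 with a floor of 32. For the 20 named genes, 419 refits kept the call in 193 and lost it in 226, and 0 reversed the direction.

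Limits remain. With 2 arrays per line, incomplete nuclear replacement and bulk tissue that the labels call panicle and the methods anther, differences cannot be assigned to the cytoplasm, the nucleus or a cell type. Dim probes near the floor give only bounds. The replicate 1 arrays were dimmer than the replicate 2 arrays, so that low genes were measured less surely there. Values against D62A or XQZ-A alone depend on which of these labels is right. After quantile normalization the majority sign turned from positive to negative over all tested genes and in 5 lists: calcium, jasmonate and ethylene, reactive oxygen, NAC, and phenylpropanoid genes.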
